A study of Mus musculus with 12 samples.

Results

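The transcripts of 8 genes that write, copy and remove DNA methylation (Dnmt1, Dnmt3a, Dnmt3b, Uhrf1, Tet1, Tet2, Tet3 and Tdg) were followed in 12 RNA-seq libraries of the mouse macrophage line RAW 264.7. They are 8 of the 35865 genes listed in the deposited quantifications, and all 8 passed the filter on low counts. They were named by symbol, with earlier results of these libraries known, and Dnmt3a was picked for its level in the comparison of miR-183-5p-EVs with ctrl-EVs. Its values in that comparison, and in the comparison of all miR-EVs together, are therefore given as a description with no test.

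The cells had been incubated for 48 h with extracellular vesicles (EVs, membrane-bound particles shed by cells) at 3 µg of EV protein per ml, in medium whose serum had been depleted of EVs. The EVs came from MS-1, a mouse endothelial line, and electroporation had put a synthetic miRNA into them: miR-222-3p, miR-183-5p, miR-142-5p or, in the group called ctrl-EVs, cel-miR-67 of the worm Caenorhabditis elegans. The miRNAs taken up were not measured in these libraries, and 1 cell line stands for the recipient macrophage. Each of the 4 groups had 3 libraries numbered 1 to 3 in their titles, all cells received loaded EVs, and cells without EVs were not analysed here. The sources used here do not say what the numbers stand for or whether libraries came from separate cultures, so p-values measure only the spread between these samples, which may be technical.

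Cytosine methylation at CpG sites is placed by the de novo methyltransferases Dnmt3a and Dnmt3b and copied onto the new DNA strand at replication by Dnmt1, which Uhrf1 brings to hemimethylated sites. The dioxygenases Tet1, Tet2 and Tet3 oxidise the methyl group, and the glycosylase Tdg excises the further oxidised bases so that base excision repair can restore an unmodified cytosine. In blood and macrophage lineages, Dnmt3a and Tet2 are known as genes whose loss alters differentiation and inflammatory responses. In bulk RNA, fewer cells of a type and less RNA per cell cannot be told apart.

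The mouse miRNAs that the 3 loads are named for are shown first because the comparisons turn on them. They are reference sequences and not the synthetic oligos, whose 3′ ends can differ (the study lists a shorter miR-222-3p oligo). The RefSeq mature sequences of the mouse miRNAs on GRCm38.p6 are printed 5′ to 3′ with the seed, bases 2 to 8, in capitals, and the 3 seeds differ. The miR-142-5p entry is mmu-miR-142a-5p at chr11:87756867-87756887 on the plus strand, miR-183-5p lies at chr6:30169711-30169732 on the minus strand and miR-222-3p at chrX:19146901-19146923 on the minus strand.
miR-142-5p: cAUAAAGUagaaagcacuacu
miR-183-5p: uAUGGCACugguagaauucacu
miR-222-3p: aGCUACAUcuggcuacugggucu

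The letters complementary to each seed were searched on the sense strand in the 3′ UTR of the complete coding transcript with the highest mean level. They are ACTTTAT for miR-142-5p, held by 1808 of 13081 genes searched (13.8%), GTGCCAT for miR-183-5p, held by 1158 (8.85%), and ATGTAGC for miR-222-3p, held by 1235 (9.44%). None of the 3 was found in the 3′ UTR of Dnmt3a (5744 bases), Dnmt3b (1331 bases), Dnmt1 (312 bases) or Uhrf1 (984 bases). The median 3′ UTR searched had 906 bases. The matches were in Tet1, Tet2, Tet3 and Tdg. The 7962 bases of Tet1 held 1 match for miR-183-5p and 2 for miR-222-3p. The windows of the other genes are printed below in transcript sense with the match in capitals, on GRCm38. They are at chr3:133466421-133466447 and chr3:133463835-133463861 for Tet2 (minus strand), chr6:83367710-83367736 and chr6:83367478-83367504 for Tet3 (minus strand) and chr10:82649829-82649855 for Tdg (plus strand). A match is a description of the letters and no measurement of binding.
Tet2, miR-183-5p match: ggtcatgcgtGTGCCATgcccctcagc
Tet2, miR-222-3p match: ttattttttaATGTAGCttacttcctg
Tet3, miR-142-5p match: tgtttttaaaACTTTATccttgtatat
Tet3, miR-222-3p match: caaggttagcATGTAGCcctggtctat
Tdg, miR-222-3p match: cacaaaggttATGTAGCctgttctgtg

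Dnmt3a makes a long protein and a short protein that lacks the N-terminal stretch, from different start codons. The first 30 coding bases of each are printed with the start codon in capitals, because they set apart the forms whose levels are given later. The long form starts at chr12:3835198-3835227 and codes for 908 residues, and the short form starts at chr12:3895573-3895602 and codes for 689. Another start, at chr12:3866039-3866068, belongs to incomplete transcript models including Dnmt3a-208, whose annotated coding part ends after 124 bases. In the levels given later, long means any model with the long start (Dnmt3a-201, Dnmt3a-218 and the incomplete Dnmt3a-206), and short means only the complete Dnmt3a-205 and Dnmt3a-203, so that the incomplete Dnmt3a-209 and Dnmt3a-217, which share the short start, are counted among the others.
Dnmt3a long: ATGccctccagcggccccggggacaccagc
Dnmt3a short: ATGaatgctgtggaagagaaccaggcctct
Dnmt3a-208: ATGgcccaggactctggcccctcagatctg

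The 3 methyltransferases share a catalytic proline-cysteine pair, whose cysteine attacks the cytosine ring. Its codons are in capitals in the 30 bases below, which mark the transcripts that code for the pair. They lie at codons 1228 and 1229 of the 1620 in Dnmt1-201 (chr9:20911801-20911830, minus strand), at codons 705 and 706 of the 908 in Dnmt3a-218 (chr12:3902411-3902440, plus strand) and at codons 636 and 637 of the 776 in Dnmt3b-206 (chr2:153677201-153677230, plus strand). Dnmt3a and Dnmt3b have 24 of the 30 bases in common, and each has 16 in common with Dnmt1. The pair was present in 4 of 4 coding Dnmt1 transcripts, 10 of 10 of Dnmt3b and 4 of 13 of Dnmt3a, the 4 with a complete coding sequence. The pair alone does not show that a transcript codes for an active enzyme. Dnmt3b-206 and Dnmt3b-205 code for 776 residues, and Dnmt3b-203 and Dnmt3b-209, with the pair at the same codons, code for 839.
Dnmt1-201: tgtggtgggccaCCCTGCcagggcttcagt
Dnmt3a-218: attggaggcagtCCCTGCaatgacctctcc
Dnmt3b-206: attggtggaagcCCATGCaatgatctctct

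Matched totals ran from 16195292 to 22814305 estimated counts per library. Libraries with the same title number deviated together from their group means (18 pairs, mean r 0.608), and the number 2 libraries stood apart from numbers 1 and 3 over the transcriptome. Of 10 macrophage markers, 9 were above 1 TPM, a transcript level scaled for depth and length, in every library, with Mrc1 under 1 in all 12. Their sum was 860 to 902 TPM in number 2 and 1079 to 1207 TPM in numbers 1 and 3. The markers did not all move together. Mean Cd68 was 386 TPM in number 2 against 339 in numbers 1 and 3, and mean Adgre1 7.33 against 5.53. The other macrophage markers had lower means in number 2, such as Cd14 at 37.8 against 123 TPM. Of 10 endothelial markers, Pecam1 and Egfl7 were above 1 TPM in every library, Vwf was between 0.787 and 4.73 TPM with its highest values in number 3, Cdh5 was between 0.059 and 1.502 TPM, and Kdr, Tek, Tie1, Emcn, Esam and Cldn5 were under 1 in all, with Cldn5 at 0.

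The methylation enzymes covered a wide range of levels, with the copying enzyme and a de novo enzyme at the top. On the TPM scale, which allows genes of different length to be compared, means over the 12 libraries were 98.3 ± 17.1 for Dnmt1 (SD, n = 12), 65.7 ± 16.9 for Dnmt3a and 36.0 ± 8.70 for Uhrf1. Below them came Tet2 at 28.0 ± 13.5 TPM, Tdg at 22.7 ± 3.39 and Tet3 at 16.2 ± 5.36. Dnmt3b, at 2.25 ± 0.71 TPM, and Tet1, at 0.77 TPM, were the lowest, and 22.2% and 13.2% of tested genes lay below them, against 89.9% below Dnmt1 and 83.4% below Dnmt3a.

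Dnmt1 was above Dnmt3a, and Dnmt3a above Uhrf1, in 12 of 12 libraries. Uhrf1 was above Tet2, and Tet2 above Tdg, in only 8 of 12 each, and the ranges of these neighbours overlapped. Tdg was above Tet3 in 11 of 12 and Dnmt3b above Tet1 in 11 of 12. Tet3 and Dnmt3b were the only neighbours whose ranges did not overlap. The order was the same with normalized counts per kilobase.

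**Figure D1:**
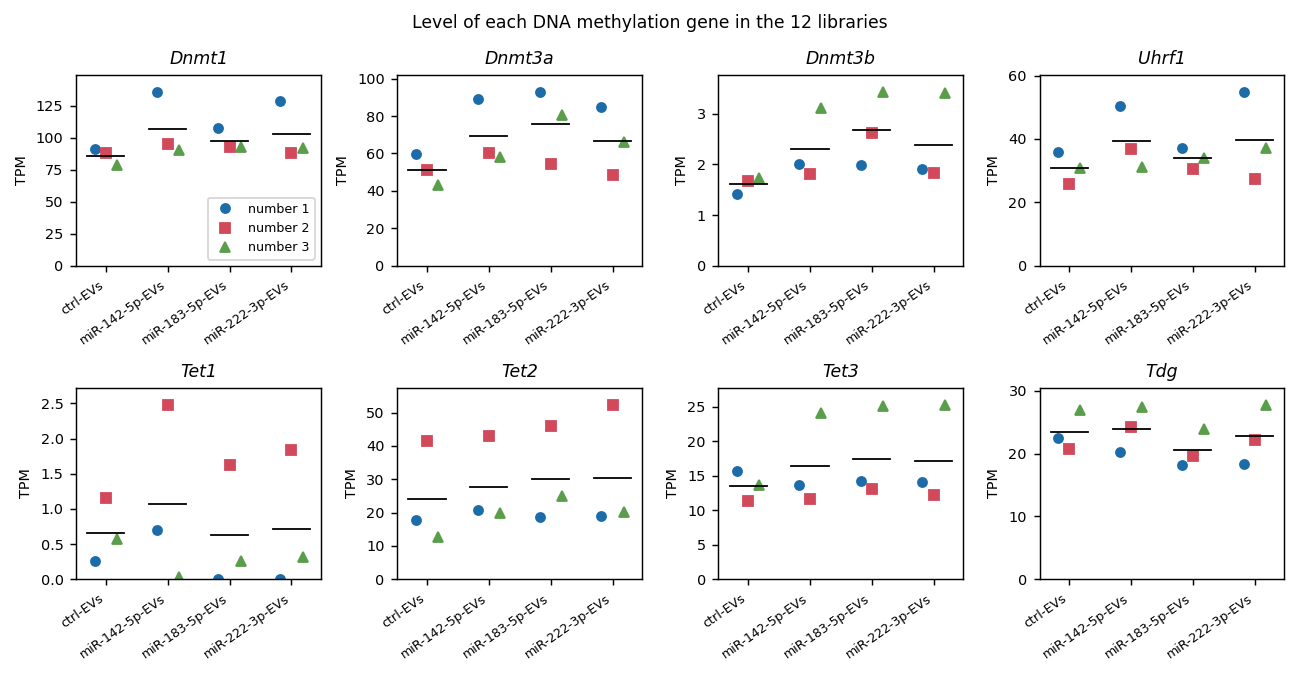
Level of the 8 genes in TPM (vertical axis) in each of the 12 libraries, grouped by the EV load, with points marked by title number and a line at each group's mean. Dnmt1 lay between 78.6 and 136 TPM in the 12 libraries, and the number 2 libraries were the highest for Tet2 in every group.

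Dnmt3a, the main de novo methyltransferase transcript of these cells, had a higher mean with each of the 3 miRNAs than in ctrl-EVs, with overlapping groups. In ctrl-EVs it was at 59.8, 51.0 and 43.3 TPM in numbers 1, 2 and 3. With miR-142-5p-EVs it was at 88.9, 60.1 and 58.2 TPM, with miR-183-5p-EVs at 92.9, 54.3 and 80.6, and with miR-222-3p-EVs at 84.9, 48.4 and 66.2. The number 1 library was the highest of its group in all 4 groups. Group means were 51.4 ± 8.26 TPM in ctrl-EVs, 69.1 ± 17.2 with miR-142-5p, 75.9 ± 19.7 with miR-183-5p and 66.5 ± 18.3 with miR-222-3p (SD, n = 3 each).

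Normalized counts, which adjust for depth and mean transcript length, also had a higher mean for Dnmt3a with each miRNA. They were 4195, 3849 and 3119 in ctrl-EVs and 6419, 4469 and 5121 with miR-183-5p-EVs. These 6 values did not overlap, whereas the TPM of the same libraries did (59.8 in ctrl-EVs number 1, 54.3 with miR-183-5p-EVs number 2). Dnmt3a was picked for this comparison, so the separation is a description. The percent of all genes that separated in this way is not given here. With miR-142-5p-EVs the normalized counts were 6071, 4705 and 3738, and with miR-222-3p-EVs 5998, 3864 and 4197, and both of these groups overlapped ctrl-EVs. The log2 difference from ctrl-EVs was 0.52 ± 0.25 (SE) with miR-183-5p and 0.41 ± 0.19 over all miR-EVs. With the title number as a block these differences were 0.51 ± 0.12 and 0.40 ± 0.10. The log2 difference was 0.38 ± 0.25 with miR-142-5p and 0.33 ± 0.25 with miR-222-3p, and neither passed the test (DESeq2, adjusted p = 1.0 in both, and 0.446 and 0.376 with the block). Both tests reuse the ctrl-EVs libraries of the comparison for which Dnmt3a was picked, so they are not independent of that choice. With 1 library left out these differences ran from 0.18 to 0.53 and from 0.12 to 0.45. Without the adjustment for transcript length the differences of Dnmt3a were 0.20 with miR-142-5p, 0.34 with miR-183-5p, 0.18 with miR-222-3p and 0.24 over all miR-EVs.

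Measured against the ctrl-EVs library of the same number, the normalized count of Dnmt3a was above it in 9 of 9 miR-EV libraries, with ratios of 1.004 to 1.64 and a median of 1.35. On the TPM scale it was above in 8 of 9. These values include the 3 pairs for which Dnmt3a was picked and are a description. Dnmt1, Dnmt3b and Tet2 were above in 9 of 9 on both scales. All 9 normalized counts lay above for 510 of 13906 genes tested (3.67%), and the 3 miR-EV libraries of a number share 1 ctrl-EVs library. The ratios of Dnmt1 ran from 1.03 to 1.45, those of Dnmt3b from 1.12 to 1.74 and those of Tet2 from 1.04 to 1.74. By normalized counts Uhrf1 was above in 7 of 9, Tet3 in 6, Tet1 in 4 and Tdg in 3, and on the TPM scale Uhrf1 was above in 9.

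**Figure D2:**
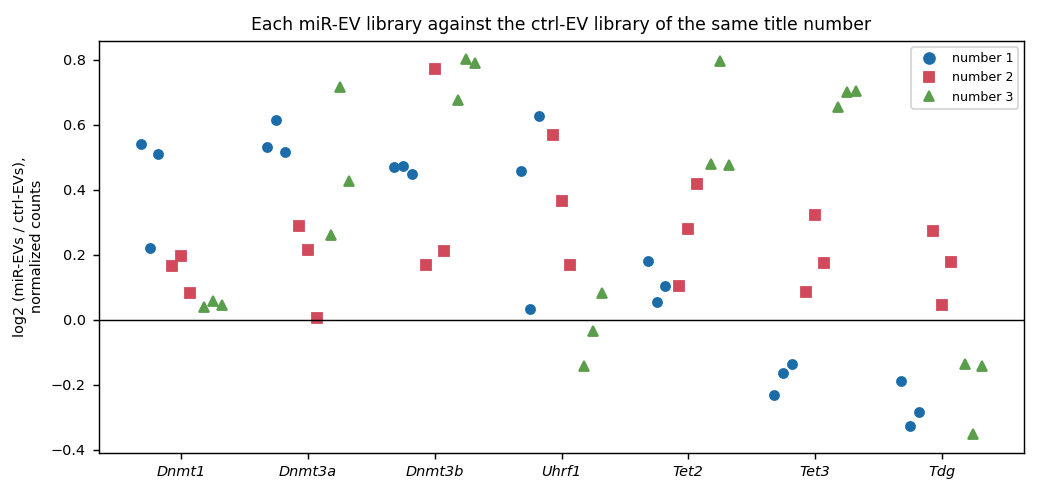
Log2 ratio of the normalized count in each miR-EV library to that in the ctrl-EVs library of the same number (vertical axis), for 7 of the genes (Tet1 is left out), with the title number marked by colour and shape. All 9 points of Dnmt1, Dnmt3a, Dnmt3b and Tet2 lay above 0, while those of Tet3 and Tdg lay to either side of it by number.

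No methylation enzyme passed the test in any comparison of loaded EVs with ctrl-EVs. DESeq2 called 0 of the 8 with miR-142-5p, where it called 0.0072% of 13897 genes, and 0 of the 7 tested with miR-183-5p, 0 of the 8 with miR-222-3p and 0 of the 7 over all miR-EVs, where it called 0.0% of genes each time. Of the genes tested, Dnmt3b had an unadjusted p under 0.05 with miR-183-5p and over all miR-EVs in the fits without the block, and no other did. Such a p was reached by 0.525% of all genes with miR-142-5p, 0.993% with miR-183-5p, 0.727% with miR-222-3p and 1.66% over all miR-EVs. The tool edgeR also called 0 in each comparison (0.0% of genes) and gave Dnmt3b alone an unadjusted p under 0.05, in the same comparisons, beside 0.453%, 0.662%, 0.475% and 1.19% of genes. With the number as a block DESeq2 called 0.0575%, 0.41%, 0.0647% and 1.6% of genes in these 4 comparisons, and none of the methylation enzymes tested. Leaving aside Tet1, this fit gave an unadjusted p under 0.05 to 2, 2, 3 and 3 of the enzymes tested, in the same order. The percent of all genes with such a p under the block is not given here. DESeq2 with the block gave no adjusted p for Tet1 with miR-183-5p, or for Tet1 and Dnmt3b with miR-222-3p and over all miR-EVs. The comparisons share the 3 ctrl-EVs libraries, so the tests of Dnmt3a with miR-142-5p and miR-222-3p are not independent of how it was picked.

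Dnmt3b, the other de novo methyltransferase, was scarce and higher on average with each miRNA. Its normalized counts were 61.8, 79.1 and 78.1 in ctrl-EVs, 85.7, 88.8 and 125 with miR-142-5p, 85.9, 135 and 136 with miR-183-5p and 84.5, 91.5 and 135 with miR-222-3p. The 9 miR-EV libraries were all above the 3 of ctrl-EVs, which held for 0.173% of all genes tested and for no other of the 8. This separation was absent from the estimated counts, which are scaled for neither depth nor length. They were 75, 72 and 102 in ctrl-EVs and from 72 to 158 in the 9 miR-EV libraries. Of the matched totals, ctrl-EVs number 3 had 102 of 20329288 and miR-142-5p-EVs number 1 had 74 of 21649561. Scaling by these totals keeps that order, so the separation needed the adjustment for transcript length. The log2 differences were 0.45 ± 0.31, 0.70 ± 0.30 and 0.51 ± 0.30 in the same order and 0.56 ± 0.23 over all miR-EVs (DESeq2, adjusted p = 1.0 in all 4). Without the length adjustment they were 0.09, 0.37, 0.34 and, over all miR-EVs, 0.28. When only complete coding transcripts were counted, the difference was -0.01 with miR-142-5p and 0.22 over all miR-EVs.

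Dnmt1, the maintenance methyltransferase, was at 90.8, 88.0 and 78.6 TPM in ctrl-EVs and from 88.1 to 136 TPM in the 9 miR-EV libraries. Its log2 differences were 0.27 ± 0.23 with miR-142-5p, 0.16 with miR-183-5p and 0.23 with miR-222-3p, and none passed (adjusted p = 1.0 in each). Uhrf1, which guides Dnmt1, had TPM of 35.8, 25.7 and 30.8 in ctrl-EVs, and its miR-EV libraries, from 27.3 to 54.8, overlapped them. Its log2 differences were 0.32, 0.12 and 0.33.

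Among the erasers, Tet2 and Tet3 had positive differences from ctrl-EVs and Tdg negative ones, and none passed the test. Tet2 was at 17.8, 41.4 and 12.7 TPM in ctrl-EVs, 20.7, 42.9 and 19.9 with miR-142-5p, 18.7, 46.0 and 25.1 with miR-183-5p and 18.9, 52.2 and 20.1 with miR-222-3p. Number 2 was by far the highest in every group. Its log2 difference over all miR-EVs was 0.30 ± 0.47, or 0.32 ± 0.10 with the number as a block (adjusted p = 0.0639). Without the block it went from -0.012 when ctrl-EVs number 3 was left out to 1.002 when number 2 was. Tet3, with matches for 2 of the seeds in the 3′ UTR shown above, was at 15.7, 11.4 and 13.7 TPM in ctrl-EVs, and its number 3 libraries, at 24.1, 25.2 and 25.2 TPM with the 3 miRNAs, stood above the rest. Its log2 differences were 0.21, 0.31 and 0.28. Tdg, the glycosylase, lay between 18.2 and 27.7 TPM in all 12 libraries and had differences of -0.02, -0.21 and -0.08.

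The miR-142-5p and miR-222-3p libraries were also compared with each other, a comparison that uses no ctrl-EVs library. The log2 difference of Dnmt3a was 0.05 ± 0.25, with a 95% interval of -0.45 to 0.54 (adjusted p = 1.0), and 0.04 ± 0.12 with the block, with an interval of -0.19 to 0.28. Leaving aside Tet1, the differences of the other genes lay between -0.17 and 0.06, and 0 of 8 were called, where DESeq2 called 0.0072% of genes and 0.0216% with the block. None of these 7 had an unadjusted p under 0.05 by DESeq2 (0.324% of all genes) or by edgeR (0.266%).

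Dnmt3a is annotated with 18 transcripts in these files, 3 of the long form, 2 of the short form and 13 others. Long transcripts made up 82.8 to 89.5% of the Dnmt3a counts in every library, and short ones 8.2 to 14.9%. In TPM, which does not favour long models, the shares were 37.1 to 59.2% and 17.9 to 31.9%. In ctrl-EVs the long form was at 30.8, 23.4 and 23.9 TPM and the short form at 14.6, 10.7 and 9.45. With miR-183-5p-EVs the long form was at 34.4, 27.1 and 39.3 TPM and the short form at 18.3, 14.8 and 15.9. In TPM both forms had higher means with every miRNA: the ratio to the ctrl-EVs mean was 1.21 with miR-142-5p, 1.29 with miR-183-5p and 1.16 with miR-222-3p for the long form, and 1.23, 1.41 and 1.32 for the short form. In estimated counts, which are not scaled for depth, the short form had a ratio of 0.964 with miR-142-5p, 1.23 with miR-183-5p and 1.07 with miR-222-3p. Most of the long signal was in Dnmt3a-218, of 8737 bases, with a mean of 18.8 TPM, and Dnmt3a-201, of 9685 bases, with 11.1. The short form was almost all Dnmt3a-205, of 2328 bases, at 13.9 TPM, since Dnmt3a-203 was at 5.71 TPM in the number 3 library of ctrl-EVs, at a trace in that of miR-222-3p (1.86e-08 TPM) and at 0 elsewhere.

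Dnmt3a-208 is a short incomplete model whose start is printed above. It was at 6.60, 7.60 and 3.40 TPM in ctrl-EVs, 19.9, 6.91 and 3.07 with miR-142-5p, 30.3, 5.85 and 9.05 with miR-183-5p and 22.2, 6.08 and 4.83 with miR-222-3p. Its 3 highest values were the number 1 libraries of the 3 miRNAs. It held 0.2 to 2.2% of the Dnmt3a counts and 5.3 to 32.6% of the TPM, because few counts on a short model weigh much per length. Without it Dnmt3a was at 53.2, 43.4 and 39.9 TPM in ctrl-EVs and 62.6, 48.5 and 71.5 with miR-183-5p-EVs. From complete coding transcripts alone, the log2 difference of Dnmt3a was 0.23 with miR-142-5p, 0.42 with miR-183-5p, 0.27 with miR-222-3p and 0.31 ± 0.11 over all miR-EVs.

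**Figure D3:**
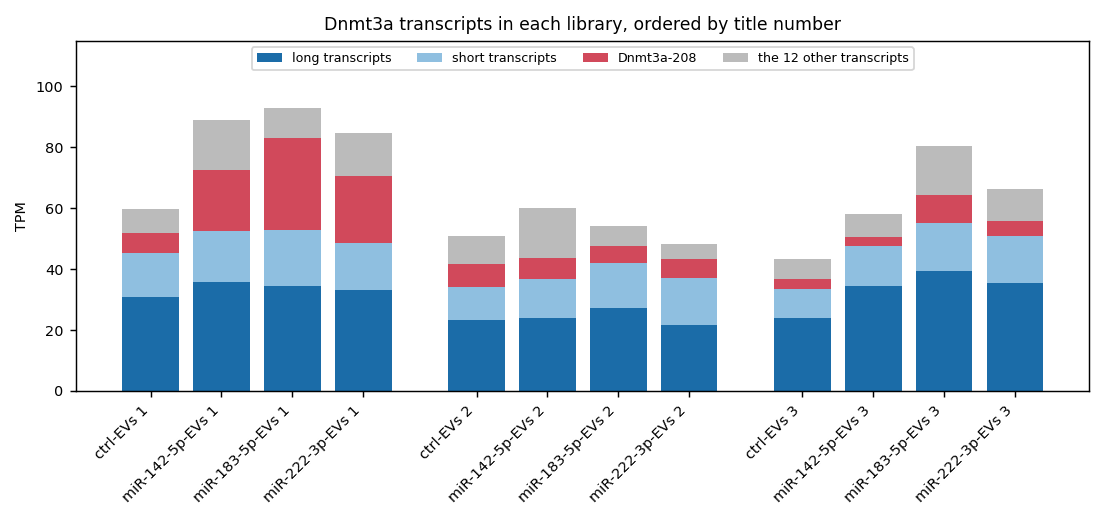
TPM (vertical axis) of the long Dnmt3a transcripts, the short ones, Dnmt3a-208 and the 12 other models, stacked for each of the 12 libraries and ordered by title number. Dnmt3a-208 was at 19.9, 30.3 and 22.2 TPM in the number 1 libraries with the 3 miRNAs and at 9.05 or below in the other 9.

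Isoform shares of the 8 genes were compared between each miRNA and ctrl-EVs by exact permutation, where 3 against 3 libraries cannot give a two-sided p below 0.10. Of 23 shares, 3 reached 0.10, and all were the share of Dnmt3b-206 in the Dnmt3b TPM. It was 64.0, 65.1 and 86.5% in ctrl-EVs, 0, 0.07 and 37.4% with miR-142-5p, 25.04, 35.6 and 39.3% with miR-183-5p and 0.00046, 33.3 and 38.1% with miR-222-3p. The lowest adjusted p over the 23 was 0.767. These shares rest on 72 to 158 estimated Dnmt3b counts per library, which are split among its models by an estimate. The percent of all genes whose leading transcript separated in this way is not given here. Dnmt3b-206 and Dnmt3b-205 have coding sequences of one length, for 776 residues, and Dnmt3b-207 codes for 860.

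Over the 12 libraries, with each number's mean removed, the genes whose levels followed Dnmt3a most closely were Iqsec3 (Pearson r 0.92), Kat6b (0.90), Cic (0.90), Sema4d (0.89) and Zfp322a (0.89), of 10857 genes that averaged 50 normalized counts or more. Dnmt3b had r 0.76 (place 98), Tet2 0.63 (place 423), Dnmt1 0.60 (place 519), Uhrf1 0.44, Tet3 0.39 and Tdg -0.69. These values describe 12 libraries that share their numbers and 1 set of ctrl-EVs. Differences between EV loads, including the one for which Dnmt3a was picked, were not removed and enter each r.

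Several of the enzymes passed the test between title numbers. Number 2 against numbers 1 and 3 was called for 3 of the 8 genes, where 64.1% of all genes tested were called. Tet2 was higher in number 2 by 1.48 ± 0.10 on the log2 scale (adjusted p = 1.22e-50). Its means were 45.6 TPM in number 2 against 19.0 and 19.4 in numbers 1 and 3, and all 4 number 2 libraries were above the other 8, as for 20.2% of all genes. None of the 8 genes was lower in all 4, as 21.0% of all genes were. Tet3, which acts on the same base, was lower by -0.33 ± 0.11 (adjusted p = 0.00591). Its number 2 libraries, at 1665 to 2080 normalized counts, overlapped those of number 1, at 1809 to 2125, and lay under the number 3 mean of 2773. From complete coding transcripts the difference was -0.18 and not called (adjusted p = 0.155). Dnmt3a (-0.16 ± 0.09, adjusted p = 0.0967), Uhrf1 (-0.13), Tdg (0.15), Dnmt1 (0.08) and Dnmt3b (0.02) did not pass. Without the length adjustment Uhrf1 was lower by -0.45 (adjusted p = 3.51e-05), and Tdg changed sign to -0.14.

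Tet1 was called higher in number 2 (adjusted p = 0.00466) on very few counts. Its estimated counts, before any adjustment for length, were 15.9, 16.4, 8.48 and 7.71 in the number 2 libraries and 1.0 to 11.2 in the other 8, so they overlapped. Nearly all of its TPM in number 2 came from Tet1-208, an incomplete model of 463 bases. No level of full-length Tet1, the family member known from embryonic stem cells, was resolved at this depth.

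**Figure D4:**
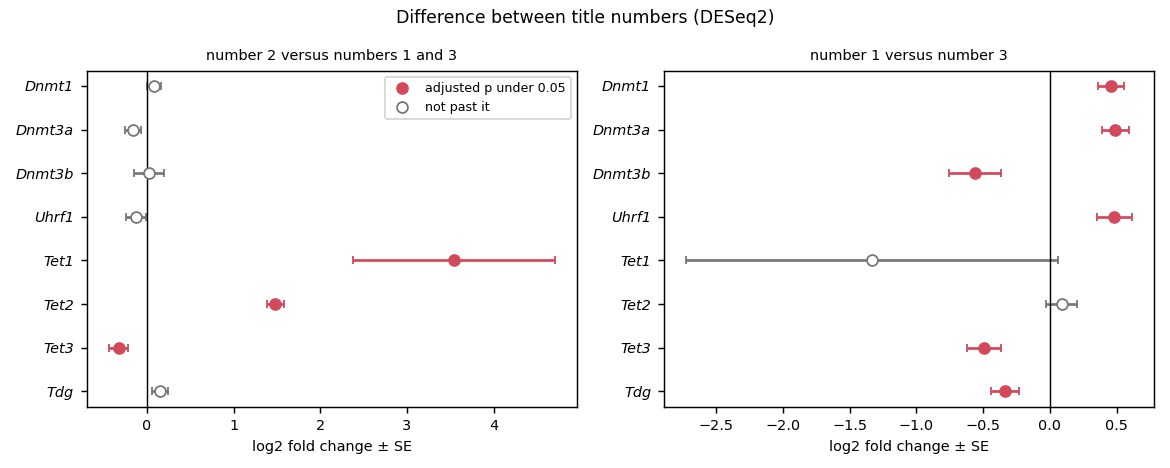
Log2 difference of normalized counts between number 2 and numbers 1 and 3, and between numbers 1 and 3, for the 8 genes, with bars of 1 SE from DESeq2 and filled points for an adjusted p under 0.05. Tet2 was 1.48 higher in number 2, and the number 1 against 3 differences of Dnmt1, Dnmt3a and Uhrf1 were positive while those of Dnmt3b, Tet3 and Tdg were negative.

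Between numbers 1 and 3, DESeq2 called 6 of the 8 genes, where it called 23.4% of all genes. Dnmt1 was higher in number 1 by 0.46 (adjusted p = 2.35e-05), Uhrf1 by 0.48 (adjusted p = 0.00228) and Dnmt3a by 0.49 (adjusted p = 3.21e-05), and all 4 number 1 libraries were above the 4 of number 3 for Dnmt1 and Uhrf1 (13.2% of all genes), and below for none of the 8 (12.0%). The count for Dnmt3a rested partly on the length adjustment: without it the difference was 0.16 (adjusted p = 0.0913), and from complete coding transcripts 0.22 (adjusted p = 0.0285). Tet3 was lower in number 1 by -0.49 (adjusted p = 0.00114), Dnmt3b by -0.56 (adjusted p = 0.0226) and Tdg by -0.34 (adjusted p = 0.00717). The call of Dnmt3b was lost when any 1 of 6 libraries was left out, and without the number 1 library of miR-222-3p only Dnmt1, Dnmt3a and Tet3 were called.

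Replication genes moved with the numbers too. Of 22 S phase genes, 17 were called between number 2 and the others, and 17 of 17 were lower, where 32.1% of all genes were called lower, with a median log2 difference of -0.62 against 0.01 over all genes. Of 12 mitosis genes, 4 were higher and 4 lower in number 2. In number 1 against 3, 9 of the 22 S phase genes and 9 of the 12 mitosis genes were called higher, where 12.9% of all genes were. In the comparisons of loaded EVs with ctrl-EVs 0 of either list were called by DESeq2 or edgeR, and 0 had an unadjusted p under 0.05 without the block. With it DESeq2 gave such a p to 2 S phase and 2 mitosis genes with miR-183-5p and to 1 mitosis gene over all miR-EVs. The percent of all genes with such a p under the block is not given here. The part of these replication genes in the differences of Dnmt1 and Uhrf1, which act at replication, was not tested, and neither was that of the macrophage marker sum, which was lowest in number 2.

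Of the 55 other genes of the methylation pathway (binding proteins, histone-linked partners, repair enzymes and the methyl donor cycle), 52 were tested, and 0 were called with any miRNA against ctrl-EVs by DESeq2 or edgeR. At an unadjusted p under 0.05 DESeq2 gave 0 with miR-142-5p, 1 with miR-183-5p and 1 with miR-222-3p, and edgeR 0, 0 and 1. With the number as a block both tools gave 2, 6 and 5 of the 52. The percent of all genes at that p with the block is not given here, so these counts and the next cannot be read as an excess. Over all miR-EVs with the number as a block, 1 of 52 was called, a share of 1.92% beside 1.6% of all genes: Usp7, a deubiquitinase known to stabilise Dnmt1 and Uhrf1, by 0.26 ± 0.07 (DESeq2, adjusted p = 0.0190), where edgeR with the block called 0 and gave 4 of the 52 an unadjusted p under 0.05. Between number 2 and the others 33 were called (63.5%), 15 higher and 18 lower, with a median of 0.01, where 32.0% of all genes were called higher. The 3 largest rises were those of Gadd45b, a stress gene tied to demethylation (1.56 ± 0.16, adjusted p = 2.54e-22), Usp7 (0.80 ± 0.07, adjusted p = 2.27e-27) and Ahcyl1, a relative of the enzyme that clears S-adenosylhomocysteine (0.63 ± 0.06, adjusted p = 9.93e-26). The 3 largest falls were those of Trdmt1, a tRNA methyltransferase of the Dnmt fold (-1.67 ± 0.19, adjusted p = 1.80e-17), Shmt2, of the mitochondrial one-carbon cycle (-1.22 ± 0.11, adjusted p = 2.98e-28), and the cytidine deaminase Apobec1 (-1.03 ± 0.07, adjusted p = 1.19e-53). Between numbers 1 and 3, 13 were called, 8 higher and 5 lower, beside 12.9% of all genes higher and 10.5% lower.

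The number 2 libraries also differed in which transcripts of a gene were read. The main coding transcript held a smaller share of its gene's TPM there for Dnmt1, Uhrf1 and Tdg (exact permutation within groups, two-sided, adjusted p = 0.033 for each over 8 shares). The leading transcript's share was lower in all 4 number 2 libraries than in the other 8 for these 3 genes, as for 18.7% of 11576 genes with several transcripts. Over all transcripts, complete coding models held 68.2 to 69.5% of the TPM in number 2 and 72.1 to 73.8% in the others. Dnmt1-201 held 46.6, 43.3, 41.8 and 38.9% in number 2 and 50.1 to 60.6% in the others. Uhrf1-201 held 48.0, 34.9, 46.5 and 30.2% against 55.3 to 73.0%. Tdg-201 held 64.0, 56.6, 52.1 and 54.0% against 76.3 to 90.02%, the widest gap. The long share of Dnmt3a overlapped between numbers (permutation p = 0.568), as did the share of Tet3-202 (permutation p = 0.926). The 81 arrangements allow no p below 0.0123.

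Models that keep an intron took up part of the difference. They held 54.4 to 58.2% of the Tet2 TPM in number 2 against 32.7 to 44.7% in the others, 18.1 to 32.6% of Tdg against 1.60 to 10.7%, and 7.06 to 9.65% of Dnmt1 against 2.74 to 5.04%. For Uhrf1 they held 32.0 to 33.4% in 3 number 2 libraries and 11.6% in ctrl-EVs, against 6.86 to 12.7% in the other numbers. The groups did not overlap for Dnmt1, Tet2 and Tdg, 3 of the 7 genes with such models, beside 31.4% of the 7345 genes that have them. Over all transcripts the share was 7.61 to 8.57% in number 2 and 5.52 to 6.32% in the others. These shares were picked once their values were known and have no test. From complete coding transcripts alone Tet2 was still higher in number 2, by 1.11 on the log2 scale, and Uhrf1 was lower by -0.38 (adjusted p = 0.000988).

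**Figure D5:**
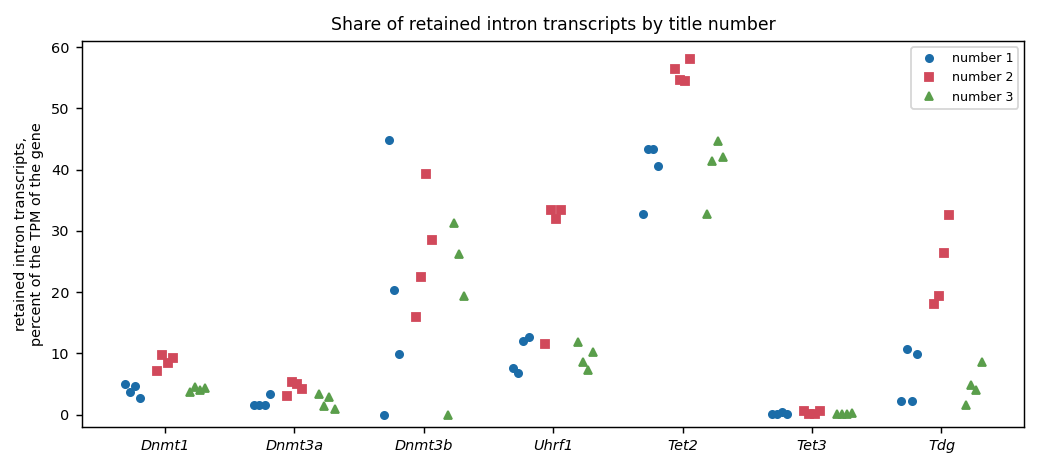
Share of each gene's TPM held by transcript models that keep an intron (vertical axis, percent) in the 12 libraries, by title number, for the 7 genes with such models. For Tet2 the number 2 libraries lay between 54.4 and 58.2% and the others between 32.7 and 44.7%.

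The 8 genes lie apart in the genome, as annotated on GRCm38. Dnmt1 is at chr9:20907209-20959888 and Tet2 at chr3:133463679-133545139, both on the minus strand, as are Tet1 at chr10:62804570-62908996 and Tet3 at chr6:83362373-83459084. Dnmt3a is at chr12:3806007-3914443, Dnmt3b at chr2:153649450-153687730, Uhrf1 at chr17:56303321-56323486 and Tdg at chr10:82629828-82650799, all on the plus strand. The only overlapping gene listed in the files was Glt8d2, on the opposite strand from Tdg, at a mean of 21.0 counts, and the libraries were stranded. Antisense genes annotated at Dnmt3a and Dnmt3b were not among the genes listed.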

How the data were processed

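Polyadenylated RNA of 12 RAW 264.7 samples, 4 EV loads with 3 libraries each, had been sequenced from a stranded kit as paired reads. The authors quantified transcripts with Salmon against Ensembl mouse cDNA and ncRNA, and the files they deposited hold an estimated count and a TPM value (a level scaled for depth and length) per transcript. Here 116622 of 118783 transcripts (98.2%) were matched to GENCODE M21 (GRCm38) and summed to genes, and the unmatched took 0.605 to 0.707% of counts. Counts were rounded, and 13906 genes reaching 10 counts in 3 or more libraries were kept. Differences were fitted by DESeq2 1.42.0 (R 4.3.3), with offsets for mean transcript length. A gene was called at an adjusted p (Benjamini-Hochberg) under 0.05, and edgeR 4.0.16 was the other tool. A floor of 3 counts per library corresponds to 0.131 to 0.185 CPM, for counting error only. Intervals are at 95%.

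The members, gene lists and tests were chosen with earlier results of these data known. The text names the 8 members, the pathway genes called in a miR-EV comparison, for number 2 the 3 largest rises and falls among called pathway genes averaging 50 or more, and the 5 genes most like Dnmt3a. Same-numbered libraries correlated at 0.409 to 0.797 over 18 pairs of deviations from group means (other numbers, mean -0.286 over 36), so the numbers were taken to pair the samples. The pairing comes from the titles. The code was tested on simulated data. Protein sequences were not used here, and alternatives added after the data were seen (complete coding transcripts, and the block with a library left out) are named where they matter.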

Additional observations from a re-analysis of the deposited data

Results flagged for a closer look

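Dnmt3b in ctrl-EVs number 1, at 61.8 normalized counts, lay far below the next library of number 1 (84.5), with a gap of 0.941 of the range of its 4 libraries, past Dixon's critical value. Tet3 in ctrl-EVs number 3, at 1902, lay far below the next of number 3 (2999), with a gap of 0.918. Of 28 sets examined (21 of 4 libraries and 7 of 9), 2 stood out in this way, and chance flags about 1 in 20.

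The 3 miR-EV libraries lay to opposite sides of their ctrl-EVs library in different numbers for Tet3 and Tdg, and these differences were not tested. The mean log2 ratio of Tet3 was -0.18 in number 1, 0.19 in number 2 and 0.69 in number 3, so number 2 exceeded number 1 by 0.37 and number 3 exceeded it by 0.87. That of Tdg was -0.27 in number 1, 0.16 in number 2 and -0.21 in number 3, with number 2 above number 1 by 0.43 and number 3 minus number 2 at -0.38. Each set of 3 shares 1 ctrl-EVs library. In numbers 1 and 3, 3193 of 13906 genes (23.0%) lay to opposite sides, Tet3 among them but not Tdg. The percent of all genes for numbers 1 and 2, or 2 and 3, is not given here. Those differences therefore cannot be read as particular to Tet3 or Tdg.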

How the results depend on the processing

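Paired by title number, the fit called none of the genes it gave an adjusted p, as without the block, and its only new pathway call was Usp7 (1 gene over all miR-EVs). With the block and 1 library left out, the calls ran from 0 to 1 with miR-142-5p (Dnmt3a, 0.48, without ctrl-EVs number 2), 0 to 2 with miR-183-5p (Tet2 and Tet3 without ctrl-EVs number 1, Tet2 without miR-183-5p number 1) and 0 to 2 over all miR-EVs (Tet2 and Tet3 without ctrl-EVs number 1, Dnmt3b and Tet2 without miR-142-5p number 2, and Dnmt1 without ctrl-EVs number 3), while miR-222-3p gave 0. No percent of all genes called is given for fits with a library left out, here or for the numbers below. Such calls cannot be read as particular to these genes. The call of Dnmt3a also reuses ctrl-EVs libraries of the comparison for which it was picked. Complete coding transcripts turned Dnmt3b with miR-142-5p to -0.0053 (-0.028 with the block), and Tet2 over all miR-EVs ran from -0.012 (without ctrl-EVs number 3) to 1.002 (without ctrl-EVs number 2). The difference of Dnmt3a with miR-183-5p ran from 0.37 to 0.63 with 1 library left out.

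For number 2, 5 genes were called without the length adjustment, and 2 to 5 with 1 library left out (5 without ctrl-EVs number 2, where Dnmt3a, at -0.25, and Tdg were added). The percent of all genes called without the length adjustment is not given here, so that count cannot be read as particular to these genes. Tet1 was lost without miR-183-5p number 2. Dnmt3a was 0.027 from complete coding transcripts, Tdg -0.14 without the adjustment and -0.15 from complete coding transcripts, and Dnmt3b -0.032 without the adjustment and -0.085 to 0.104 with 1 library left out (below 0 without ctrl-EVs number 2 or 3 or miR-183-5p number 1 or 2). Tet3 was -0.18 from complete coding transcripts and not called. For numbers 1 and 3, 3 to 6 were called with 1 library left out, and Tet2 ran from -0.011 (without ctrl-EVs number 3) to 0.202.

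The isoform shares called in number 2 ran from 0 to 4 with 1 library left out, with 0 whenever a number 2 library was missing, which leaves fewer arrangements. Of 23 shares, those not overlapping ctrl-EVs ran from 3 to 6, and 7 had the same sign in all 3 numbers. The percent of all genes reaching either is not given here, so neither count can be read as particular to these genes. The cause of the changes with processing was not tested. The order of levels did not change.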
